A study of Homo sapiens with 8 samples.

Results

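The BCL2 family decides whether a stressed cell opens the outer membrane of its mitochondria. Anti-apoptotic members (here BCL2, BCL2L1, which encodes BCL-XL, and MCL1) bind and hold back the pore-forming effectors BAX and BAK1. The BH3-only members (here BCL2L11, PMAIP1, BBC3, BAD and BID, which encode BIM, NOXA, PUMA, BAD and BID) carry a short helix that either occupies the anti-apoptotic proteins or activates the effectors. Ovarian carcinoma cells often depend on BCL-XL or MCL1 for survival, and drugs that mimic the BH3 helix target these proteins. RNA levels do not report the protein changes, such as cleavage of BID or phosphorylation of BAD, through which several members are switched on or off.

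These genes were followed in 8 xenograft tumours grown in nude mice, which lack a thymus and mature T cells, after implanting SK-OV-3 cells, an established line of human ovarian cancer. For 4 tumours the implanted cells carried pIND_BORA, the overexpression vector for BORA, whose product helps Aurora A to switch on PLK1 before mitosis. For the other 4 they carried pIND_EV, an empty vector (EV). Each tumour had 1 Affymetrix array. The labels give no age of the mice and no time of growth, nor whether each tumour had its own mouse or its own transfected pool. The p-values thus reflect spread among these 8 samples, part of which may be technical.

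The members were 10 genes chosen by symbol. Of these, 9 were measured, each by 1 transcript cluster (a group of probes that reports 1 gene), among 17709 named clusters in all: 3 anti-apoptotic, 4 BH3-only and 2 effector genes. BBC3 was not analysed here. Values are the deposited log2 signals, so a difference of 1 is a doubling, and levels are compared only within a cluster, since clusters differ in their probes. The 612 negative control probes set a background line per array, their 95th percentile (7.62 to 8.24), and a level under it was called near background. By this measure BCL2L1, MCL1, BAX and BAK1 were above background on all 8 arrays, BCL2L11, PMAIP1 and BID on some, and BCL2 and BAD on none.

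Array medians over the named clusters lay between 6.96 and 7.07. The BORA transcript fits the labels, with 12.76 ± 0.23 against 6.63 ± 0.57 in EV tumours (SD, n = 4 each). The tumour EV replicate 1 stood apart: its array correlated with the others at 0.943 to 0.954, while the highest correlation of every other array was at least 0.986. The summed level of 11 squamous epithelial markers was 18.55 (log2) in that tumour and 12.87 to 15.03 in the other 7. Its array also had the highest background line (8.24) and the lowest share of named clusters above that line (36.3%). Of the 9 members, 5 had their lowest level of all 8 tumours in EV replicate 1 (BCL2L1, PMAIP1, BAD, BID and BAX) and 2 their highest (BCL2L11 and BAK1). How often this was so over all clusters was not counted. Each comparison is therefore given over 8 arrays and again over the 7 arrays without that tumour. Of 7 measured markers of ovarian carcinoma and simple epithelium, 6 were above background on every array.

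No member passed limma's adjusted p threshold of 0.05 (0 of 9 over 8 arrays and 0 of 9 over 7). Over all named clusters the share past it was 0.102% (8 arrays) and 0.514% (7 arrays). Without adjustment, p was under 0.05 for 2 members, the BH3-only genes PMAIP1 and BAD, both higher in BORA tumours, and for 0 lower ones, in both comparisons; over all clusters 7.37% were higher and 7.17% lower over 8 arrays, and 7.7% and 7.62% over 7. The same 2 genes had every BORA tumour above every EV tumour, which was so at 4.45% of all clusters over 8 arrays and 6.66% over 7, and at 0 members every BORA tumour was below every EV tumour (4.91% and 7.68% of all clusters). The median log2 difference of the 9 members was 0.20 over 8 arrays and 0.24 over 7, against -0.026 and -0.029 over all clusters. Among the 7594 clusters above background in at least 1 group the median difference was 0.12 over 8 arrays (0.011 after quantile normalization), so bright clusters as a whole were slightly higher in BORA tumours as deposited.

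**Figure D1:**
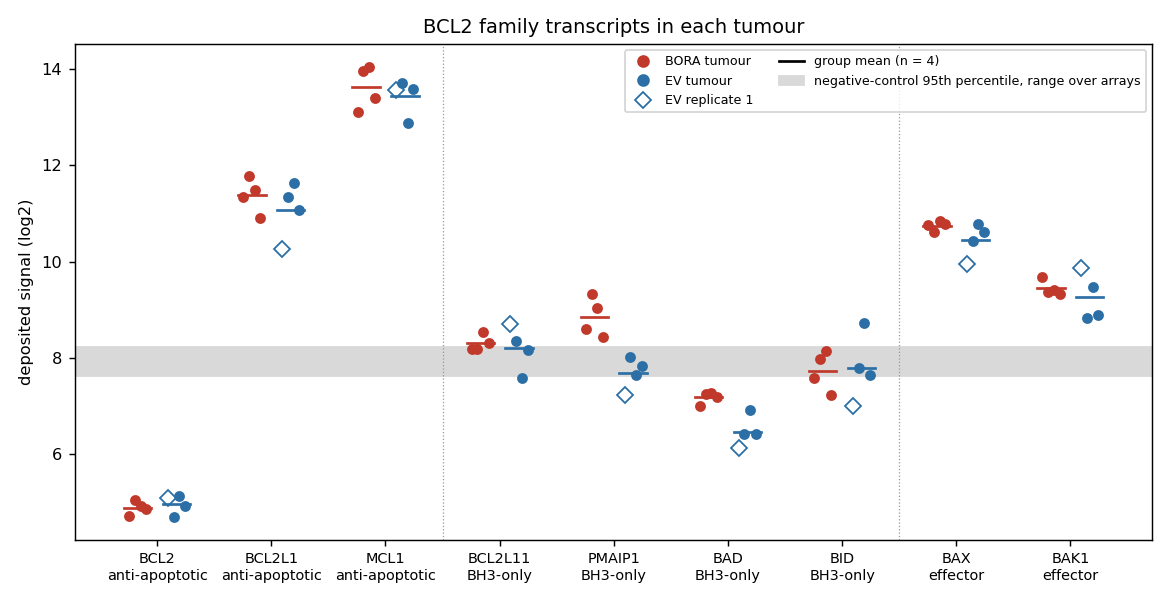
Deposited log2 signal (y axis) of the 9 measured members in each tumour, with BORA tumours in red, EV tumours in blue, EV replicate 1 as an open diamond, bars for group means (n = 4) and a grey band for the range of the negative-control percentile over arrays (7.62 to 8.24). PMAIP1 and BAD are the genes whose red and blue points do not overlap, and BCL2 and BAD lie below the band in every tumour. Levels are to be read within a gene.

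Among the anti-apoptotic genes, BCL2, the founding member, was near background everywhere. It (TC1800008891.hg.1) read 4.71, 5.04, 4.93 and 4.86 in BORA replicates 1 to 4, while EV replicates 1 to 4 read 5.10, 4.69, 5.12 and 4.93. These values exceeded between 56.7% and 66.0% of the negative control probes of their arrays, which places them near the middle of the negative-control distribution. The groups overlapped, with means of 4.89 ± 0.14 and 4.96 ± 0.20 (SD, n = 4 each). The log2 difference, BORA minus EV, was -0.075 (SE 0.15, 95% interval -0.42 to 0.27, limma adjusted p = 0.842), and -0.029 over 7 arrays (adjusted p = 0.955). Its sign turned after quantile normalization (0.077 over 8 arrays), and at this signal a difference in BCL2 transcript was not detectable.

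BCL2L1, whose main product BCL-XL guards the mitochondrial membrane, was well above background in every tumour. Its cluster (TC2000008815.hg.1) stood at 11.34, 11.79, 11.49 and 10.91 in BORA tumours and at 10.26, 11.35, 11.64 and 11.07 in EV tumours. The lowest of the 8 was EV replicate 1, and the other 3 EV tumours lay within the BORA range. BORA minus EV was 0.30 on the log2 scale over 8 arrays (SE 0.30, 95% interval -0.37 to 0.98, limma adjusted p = 0.660). Without EV replicate 1 it was 0.029 (SE 0.22, 95% interval -0.47 to 0.52, adjusted p = 0.966) and its sign turned with the scaling (-0.087 after quantile normalization, -0.021 after centring). The cluster does not separate the long product from the short, pro-apoptotic one that alternative splicing of this gene can give.

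MCL1, a short-lived protein that holds NOXA, BIM and BAK, was also well above background. It (TC0100018484.hg.1) was at 13.12, 13.96, 14.06 and 13.41 in BORA tumours and at 13.58, 13.71, 12.87 and 13.59 in EV tumours. BORA replicates 2 and 3 were the highest 2 tumours, while EV replicate 3 was the lowest and BORA replicate 1 the next. The log2 difference was 0.20 (SE 0.26, 95% interval -0.39 to 0.78, limma adjusted p = 0.750) over 8 arrays and 0.24 (SE 0.27, 95% interval -0.36 to 0.84, adjusted p = 0.716) over 7. Without EV replicate 3 the 8-array difference was 0.0086, and the 7-array difference -0.016. Without BORA replicate 3 they were 0.057 and 0.10, and without BORA replicate 2 they were 0.089 and 0.14. Leaving out BORA replicate 1 instead gave 0.37 over 8 arrays. The size of the positive values thus depends on single tumours.

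BAX and BAK1, the effectors that assemble the pore, were above background in all tumours and did not pass. BAX (TC1900008505.hg.1) was at 10.76, 10.61, 10.85 and 10.79 in BORA tumours and at 9.95, 10.43, 10.77 and 10.61 in EV tumours. BORA tumours were close together (SD 0.10, n = 4), and EV replicate 1 was the lowest. The groups differed by 0.31 (SE 0.19, 95% interval -0.12 to 0.73, limma adjusted p = 0.479) over 8 arrays and 0.14 (SE 0.16, adjusted p = 0.717) over 7. Quantile normalization left 0.19 and 0.030.

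BAK1 (TC0600011553.hg.1) was at 9.67, 9.36, 9.42 and 9.33 in BORA tumours and at 9.87, 8.83, 9.48 and 8.89 in EV tumours. Here EV replicate 1 was the highest of all 8, opposite to its place for BAX. The log2 difference was 0.18 (SE 0.24, 95% interval -0.36 to 0.71, limma adjusted p = 0.753) over 8 arrays, and 0.032 and 0.051 without EV replicate 2 or 4. Without EV replicate 1 it was 0.38 (SE 0.20, 95% interval -0.055 to 0.81, adjusted p = 0.395).

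The clearest separation was that of PMAIP1, whose product NOXA binds chiefly MCL1. Its cluster (TC1800007471.hg.1) was at 8.60, 9.33, 9.04 and 8.43 in BORA tumours and at 7.23, 8.03, 7.64 and 7.83 in EV tumours. The lowest BORA tumour exceeded the highest EV tumour by 0.41, and all 4 BORA tumours but 2 of 4 EV tumours were above background. Group means were 8.85 ± 0.41 and 7.68 ± 0.34 (SD, n = 4 each), a log2 difference of 1.17 (SE 0.24, 95% interval 0.63 to 1.71), or 2.25-fold. This did not pass over all clusters (unadjusted p = 0.000781, limma adjusted p = 0.129). Without EV replicate 1, the lowest of the 8, the difference was 1.02 (SE 0.23, 95% interval 0.52 to 1.52), or 2.03-fold, with an adjusted p of 0.0830. EV replicates 1 and 3 lay near background, and EV replicates 2 and 4, at 8.03 and 7.83, barely exceeded the lines of their arrays (8.01 and 7.82). The size of the fold is therefore uncertain.

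BAD, a BH3-only gene whose product is held inactive by survival kinases, differed in the same direction at a level near background in both groups. It (TC1100011158.hg.1) was at 6.99, 7.26, 7.27 and 7.19 in BORA tumours and at 6.13, 6.42, 6.91 and 6.42 in EV tumours. The groups did not overlap, by a margin of 0.077 between BORA replicate 1 and EV replicate 3. The log2 difference was 0.71 (SE 0.18, 95% interval 0.30 to 1.12, unadjusted p = 0.00333, limma adjusted p = 0.180) over 8 arrays and 0.59 (SE 0.18, 95% interval 0.20 to 0.99, adjusted p = 0.164) over 7. No fold is given, since no BORA or EV tumour was above the negative-control percentile.

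BCL2L11 and BID showed no such separation. BCL2L11, which encodes BIM, an activator of BAX and BAK, had its cluster (TC0200008870.hg.1) at 8.19, 8.18, 8.55 and 8.32 in BORA tumours and at 8.71, 8.34, 7.58 and 8.17 in EV tumours. The EV tumours spread on both sides of the BORA tumours, with EV replicate 1 the highest and EV replicate 3 the lowest. Over 8 arrays the log2 difference was 0.11 (SE 0.23, 95% interval -0.41 to 0.63, limma adjusted p = 0.847), and it was 0.28 (SE 0.21, adjusted p = 0.562) over 7. Without EV replicate 3 the 8-array value was -0.097.

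BID, which links death receptors to the mitochondria once caspase-8 cleaves it, was partly near background. It (TC2200007906.hg.1) was at 7.58, 7.98, 8.15 and 7.22 in BORA tumours and at 7.01, 7.80, 8.74 and 7.64 in EV tumours. EV tumours held both the lowest value (replicate 1) and the highest (replicate 3). The log2 difference was -0.064 (SE 0.35, 95% interval -0.84 to 0.72, limma adjusted p = 0.947) over 8 arrays. Over 7 it was -0.32 (SE 0.29, 95% interval -0.97 to 0.32, adjusted p = 0.641), and without EV replicate 3 as well 0.015.

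**Figure D2:**
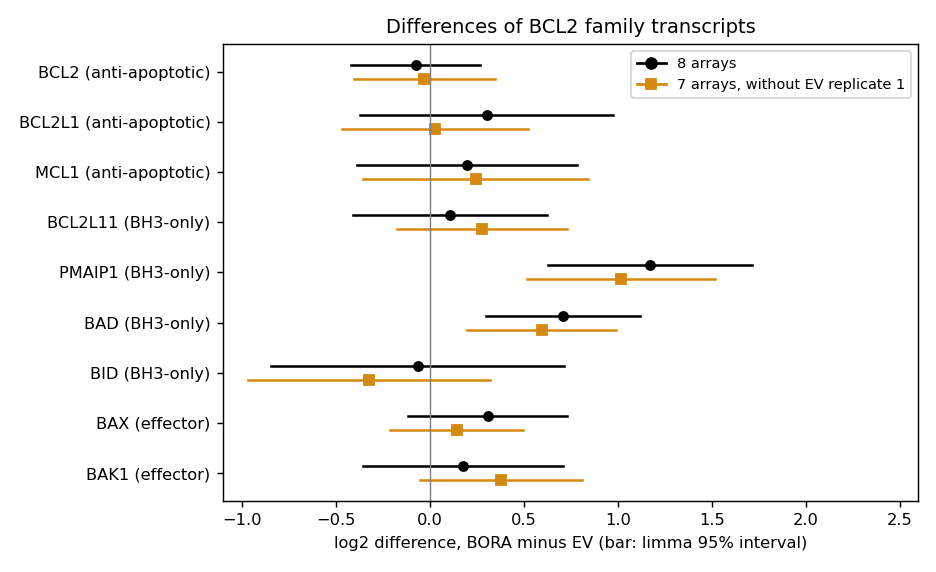
Log2 difference, BORA minus EV (x axis), of each measured member with limma's 95% interval, over 8 arrays (black circles) and over the 7 arrays without EV replicate 1 (orange squares). The intervals of PMAIP1 (0.63 to 1.71 over 8 arrays) and BAD (0.30 to 1.12) lie above 0, and those of the other 7 genes include 0.

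The upstream sequences of PMAIP1 and BAD, the 2 genes without overlap, and of BCL2, near background in every tumour, are shown so that these genes can be set side by side. Each is the 250 bases before the most upstream start that RefSeq's promoter table gives (GRCh38.p14), 5′ to 3′ on the gene's strand, which is chr18:59899746-59899995 (plus) for PMAIP1, chr11:64284705-64284954 (minus) for BAD and chr18:63319770-63320019 (minus) for BCL2. Capitals mark TGACG or its reverse complement CGTCA, the half-site that CREB and ATF factors can bind.
PMAIP1: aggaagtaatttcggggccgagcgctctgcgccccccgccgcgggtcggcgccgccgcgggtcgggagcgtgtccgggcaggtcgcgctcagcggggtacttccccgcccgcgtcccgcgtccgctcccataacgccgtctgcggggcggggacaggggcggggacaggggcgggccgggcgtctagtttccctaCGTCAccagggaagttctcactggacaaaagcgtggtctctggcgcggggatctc
BAD: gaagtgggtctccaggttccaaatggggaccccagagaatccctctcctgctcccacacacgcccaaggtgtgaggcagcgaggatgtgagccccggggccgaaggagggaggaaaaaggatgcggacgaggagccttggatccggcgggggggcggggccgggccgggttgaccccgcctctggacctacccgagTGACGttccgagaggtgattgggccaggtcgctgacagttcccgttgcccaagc
BCL2: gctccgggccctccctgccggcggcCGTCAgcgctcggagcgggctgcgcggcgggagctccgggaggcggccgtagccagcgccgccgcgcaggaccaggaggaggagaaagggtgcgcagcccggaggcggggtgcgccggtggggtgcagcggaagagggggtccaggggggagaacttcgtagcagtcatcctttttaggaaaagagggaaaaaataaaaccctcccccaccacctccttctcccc
The match begins 55 bases before the start in PMAIP1, 54 in BAD and 225 in BCL2. On both strands, 21.2% of the 35116 windows in the table hold TGACG, as do 5 of the 9 member windows used (those above, BCL2L1 and BAX). These 9 include BBC3, whose transcript was not analysed here, and no MCL1 window was used. GGGCGG, the GC box, was found 4 times in PMAIP1, 1 time in BAD and 0 times in BCL2. In members without separation it was found 3 times in BCL2L11, 2 times in BAK1 and 1 time in BAX. At least 1 was held by 5 of the 9 member windows and by 42.6% of all windows. No GC box overlapped a TGACG match in the 3 windows shown. Also searched were CCAAT (5 of the 9 member windows, 32.0% of all windows), TATAAA (1 and 10.7%), CACGTG (2 and 6.3%) and TTTNNCGC (1 and 5.9%). A match is a description of letters and not of binding, and the table's starts may not be those used in these tumours.

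The balance between the 2 sides was described by a score per tumour: the mean deviation of the 3 anti-apoptotic genes from their own 8-array means, minus the same mean over the 6 measured pro-apoptotic genes. Pro-apoptotic scores were 0.12, 0.28, 0.37 and 0.037 in BORA replicates 1 to 4 and -0.36, -0.20, 0.011 and -0.25 in EV replicates 1 to 4, so every BORA tumour was above every EV tumour, by a narrow margin over EV replicate 3. These 6 genes include PMAIP1 and BAD, each without overlap on its own, so the separation of the score is not independent of theirs. Anti-apoptotic scores were -0.18, 0.37, 0.26 and -0.17 in BORA tumours and -0.25, 0.021, -0.019 and -0.033 in EV tumours, with BORA replicates 2 and 3 high and replicates 1 and 4 low. The mean difference was 0.40 for the pro-apoptotic genes and 0.14 for the anti-apoptotic genes.

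Anti minus pro was therefore lower in BORA tumours, at -0.30, 0.091, -0.11 and -0.21 against 0.11, 0.22, -0.030 and 0.22 in EV tumours, and the groups overlapped. Its difference was -0.26 (SE between tumours 0.10) over 8 arrays and -0.27 (SE 0.12) over 7. No p is given, since the genes were chosen with earlier results of these data known. PMAIP1 carried much of it: without that gene the difference was -0.11 over 8 arrays and -0.13 over 7, while leaving out any other single member gave -0.15 to -0.35 and -0.21 to -0.40. Leaving out BCL2, near background throughout, gave the -0.15. Without the members near background in both groups the difference was -0.19 over 8 arrays and -0.16 over 7. Those values still include PMAIP1, and the balance without it and the members near background was not computed. Among the 4 members above background on every array, BCL2L1 and MCL1 differed by 0.30 and 0.20 over 8 arrays, and BAX and BAK1 by 0.31 and 0.18. Over 7 arrays BCL2L1 and MCL1 differed by 0.029 and 0.24, and BAX and BAK1 by 0.14 and 0.38.

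**Figure D3:**
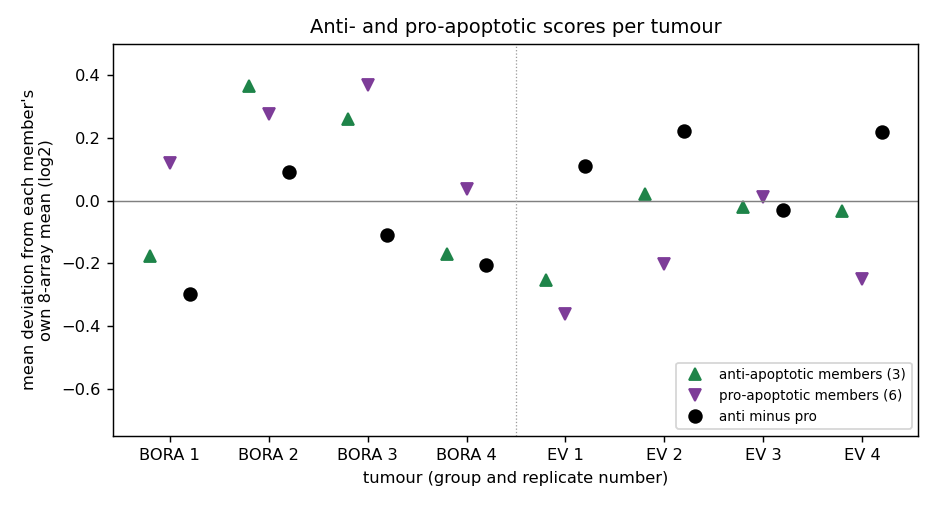
Mean deviation from each member's own 8-array mean (y axis, log2) per tumour for the 3 anti-apoptotic genes (green), the 6 pro-apoptotic genes (purple) and their difference (black). Purple points of all 4 BORA tumours lie above those of the EV tumours, while the green points overlap, and the black points run from -0.30 to 0.091 in BORA tumours and from -0.030 to 0.22 in EV tumours. The purple score includes PMAIP1 and BAD, which did not overlap on their own.

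Among clusters above background on all 8 arrays (5740 besides each member), those with the most similar pattern are named with Pearson's r over 8 tumours and, in brackets, over the 7 without EV replicate 1. For BCL2L1 they were LRRC58 at 0.998 (0.993) and ARSJ at 0.986 (0.959). For MCL1 they were ANKLE2 at 0.919 (0.940) and SNX1 at 0.911 (0.916). BAX was most like CLINT1 at 0.994 (0.978) and CFL1 at 0.972 (0.885), and BAK1 most like FZR1 at 0.974 (0.963) and BRD1 at 0.957 (0.944). These are the highest of 5740 values for each member over few tumours and serve as a description, with no test.

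Around the members, 71 of 79 genes of the apoptosis machinery, in 5 lists, were measured. None passed in limma over 8 arrays or over 7 (0 of 71 in each direction). Without adjustment, p was under 0.05 for 3 higher and 3 lower genes over 8 arrays, and for 5 and 3 over 7. Of all clusters, 7.37% and 7.17% were so over 8 arrays, and 7.7% and 7.62% over 7. BORA tumours lay above all EV tumours at 2 genes and below at 2 over 8 arrays, and at 4 and 3 over 7. This was so at 4.45% and 4.91% of all clusters over 8 arrays, and at 6.66% and 7.68% over 7. The median log2 difference over the 71 genes was -0.0053 over 8 arrays and 0.046 over 7, beside -0.026 and -0.029 over all clusters.

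Of the other BCL2 family genes, 13 of 13 were measured, 6 of them near background on every array, and their median difference was -0.052 over 8 arrays and 0.053 over 7. BCL2L15 was at 5.41 ± 0.19 in BORA and 4.78 ± 0.22 in EV tumours (SD, n = 4 each), a log2 difference of 0.63 (SE 0.17, limma adjusted p = 0.184). BCL2L10, an anti-apoptotic relative, was at -0.46 (SE 0.14, adjusted p = 0.218), and BMF, a BH3-only gene, at -0.49 (SE 0.21, adjusted p = 0.330). All 3 lay near background in both groups, and BCL2L15 and BCL2L10 were without overlap between the groups over 8 arrays. For BMF the direction was opposite to that of PMAIP1 and BAD.

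In the apoptosome and caspase list, 14 of 16 genes were measured, with 7 above and 7 below 0 and a median of 0.057 (-0.11 over 7 arrays). CASP9, the initiator caspase of the apoptosome, was at 7.55 ± 0.18 and 6.96 ± 0.38 (SD, n = 4 each), a log2 difference of 0.59 (SE 0.20, limma adjusted p = 0.270) near background in all tumours but 1 BORA tumour. DFFB, the caspase-activated nuclease, was at -0.43 (SE 0.14, adjusted p = 0.238), near background throughout and without overlap. CASP2 was at 0.34 over 8 arrays and 0.14 over 7 (adjusted p = 0.502 and 0.743).

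The inhibitors of apoptosis and their antagonists (10 of 11 measured) had a median of 0.027 over 8 arrays and 0.053 over 7. BIRC2, the ubiquitin ligase cIAP1, was at 0.60 (SE 0.29, limma adjusted p = 0.377), HTRA2, a mitochondrial protease that antagonises these inhibitors, at 0.30 (adjusted p = 0.460) and BIRC5, which encodes survivin, at 0.76 (SE 0.51, adjusted p = 0.514). Without EV replicate 1 the differences of BIRC2, HTRA2 and BIRC5 were 0.33, 0.18 and 0.24, each more than 1.5 times smaller.

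Death receptors and their ligands (9 of 12 measured) had a median of 0.28 over 8 arrays and 0.21 over 7, with 6 and 8 of 9 genes above 0. TNFRSF1A, the main TNF receptor, was at 0.31 (SE 0.15, limma adjusted p = 0.397), FADD, the adaptor that recruits caspase-8, at 0.28 (SE 0.15, adjusted p = 0.416), and TNFRSF10B, the TRAIL receptor DR5, at 0.86 (SE 0.47, adjusted p = 0.433) and at 0.42 without EV replicate 1. FADD was the gene of this list without overlap between the groups, and 7 of its 8 values lay near background.

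Regulators of BCL2 family genes and proteins (25 of 27 measured) had a median of -0.039 over 8 arrays and -0.00033 over 7. E2F1, a cell cycle factor, was at 0.94 (SE 0.36, limma adjusted p = 0.294) near background in every tumour, and at 0.58 without EV replicate 1. CREB1, a factor that binds the TGACG element, was at 10.88 ± 0.30 in BORA and 10.52 ± 0.044 in EV tumours (SD, n = 4 each; log2 difference 0.36, SE 0.17, adjusted p = 0.362). STAT5A, a cytokine-activated factor, was at -0.37 (SE 0.17, adjusted p = 0.369).

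**Figure D4:**
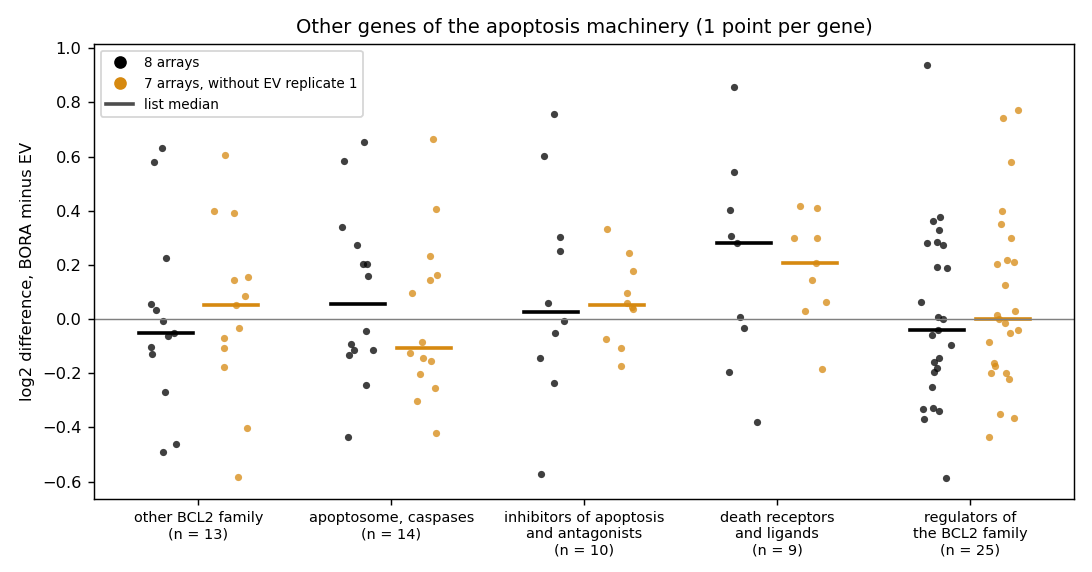
Log2 difference, BORA minus EV (y axis), of each measured gene in the 5 lists, over 8 arrays (black) and over the 7 without EV replicate 1 (orange), with bars for list medians. All points lie between -0.59 and 0.94, and medians lie between -0.11 and 0.28.

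Some markers of other cells also differed between the tumours, though only PTPRC passed limma's adjusted threshold, and only over 7 arrays. In these bulk samples, fewer cells of a type and less RNA per cell cannot be told apart, and human probes may read mouse host RNA in part. The summed level (log2) of 6 endothelial markers was 8.89 to 9.48 in BORA tumours and 8.09 to 8.85 in EV tumours. Over 8 arrays, 4.45% of all clusters had every BORA tumour above every EV tumour, and 4.91% below. The carcinoma marker PAX8, above background on every array, was among those above (log2 difference 1.10, limma adjusted p = 0.199). The squamous marker S100A8 was among those below (-3.85, adjusted p = 0.434). PECAM1 and CDH5 were also among those above, at 1.56 and 2.28 (adjusted p = 0.137 and 0.129). These 2 were above background in 3 and 2 BORA tumours and in 0 EV tumours. The other 4 endothelial markers, near background on all arrays, had differences below 0, with VWF at -0.33, KDR at -0.062, TEK at -0.49 and CLDN5 at -0.49. The summed level of 7 leukocyte markers was 11.63 to 12.27 in BORA tumours, 10.99 in EV replicate 1 and 12.66 to 13.22 in the other EV tumours, with 5 of 7 near background on all arrays. PTPRC was at -0.68 over 8 arrays (limma adjusted p = 0.803) and lower in BORA tumours over 7 (-2.07, adjusted p = 0.0194), while CD68, a macrophage marker above background on all 8 arrays, was at 0.35 and 0.38 (adjusted p = 0.567 and 0.563). Fibroblast markers (5 measured) were at 15.17 to 15.69 and 14.83 to 15.81, and red cell markers (3 measured) at 8.39 to 8.84 and 8.09 to 8.46. In each of these 2 lists, 2 genes were near background on all arrays. COL1A2, the brightest fibroblast marker, was at 0.063 over 8 arrays and -0.17 over 7. LUM was at 1.14 and 2.07 (limma adjusted p = 0.576 and 0.112), while DCN and PDGFRB, near background, were below 0 in both comparisons. The part of other cells in the differences of PMAIP1 and BAD was not tested.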

How the data were processed

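Per the submitters' processing notes, the authors made the values with Affymetrix Expression Console; its version, the normalization and the genome build are not given in the sources. Each probe set has 1 deposited value per array, read here as a log2 signal because of its range, the log base being unstated. Genes were named through the supplied platform annotation (17709 clusters with 1 symbol, of 24351 rows), and the brightest cluster of a symbol was used. The design text names another array than this annotation does.

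All named clusters were fitted with limma 3.58.1 (R 4.3.3), lmFit and eBayes, no covariates, no filter, BORA minus EV, with Benjamini-Hochberg adjustment over all of them, for 8 arrays and for 7 without EV replicate 1. The fit was tested on simulated data with independent noise and no outlying array. That setting does not cover a tumour that stands apart, such as EV replicate 1. Scores, counts and likeness were computed from the same values. The number of arrays limits the precision, and labels name no batch.

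The members and lists were chosen with earlier results of these data known. Named from each list were the 3 genes with the smallest p over 8 arrays and any past the threshold, and for each member above background on all arrays the 2 most similar clusters. The alternatives tried were a block for the replicate number, quantile normalization, centring, an intensity trend with robust fitting, array weights, a filter on clusters near background, the mean of all clusters of a symbol, a threshold of 0.1 and leaving out each array.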

Additional observations from a re-analysis of the deposited data

Results flagged for a closer look

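Of 54 groups of 4 tumours checked for 1 value far from the others, 1 stood out, where chance gives about 1 in 20. MCL1 in EV tumours had 1 low value, EV replicate 3 at 12.87, against 13.58, 13.71 and 13.59 in the other 3, a gap of 0.841 of the group's whole range.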

How the results depend on the processing

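Tumours with the same replicate number showed little shared deviation: their deviations from the group means correlated at -0.11, 0.039, 0.071 and -0.019 over all clusters. The labels do not say whether these numbers mark pairs, and the correlations cannot decide it. With the replicate number as a block, 0 members passed over 8 arrays or over 7, and the balance differed by -0.26 and -0.21. PMAIP1 and BAD were above 0 in every alternative run, at 1.01 to 1.31 and 0.59 to 0.86 over 8 arrays and at 0.86 to 1.16 and 0.51 to 0.76 over 7, with limma adjusted p of 0.0830 to 0.306, 0.104 to 0.358, 0.0717 to 0.191 and 0.109 to 0.331. No alternative at the threshold of 0.05 brought a member past it; at 0.1, 1 member, PMAIP1, passed over 7 arrays. BAD and BCL2, and BID over 8 arrays, had no value after the filter on clusters near background.

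Of 123 alternative values of single members over 8 arrays 6 turned their sign, and 12 of 115 over 7. Quantile normalization turned BCL2 (0.077) and BCL2L11 (-0.0098) over 8 arrays, and BCL2 (0.12) and BCL2L1 (-0.087) over 7. Array weights turned BCL2 (0.021 over 8, 0.041 over 7), centring BCL2L1 (-0.021 over 7) and the replicate block BCL2 (0.031 over 7). Leaving out single arrays of the 8 gave -0.097 to 0.28 for BCL2L11 and -0.32 to 0.25 for BID, and of the 7 it gave -0.14 to 0.075 for BCL2, -0.11 to 0.18 for BCL2L1, -0.016 to 0.42 for MCL1 and -0.53 to 0.015 for BID. MCL1 turned without EV replicate 3, BCL2L11 without EV replicate 3, and BID without EV replicate 3 or, of the 8, BORA replicate 4. The cause was not tested. The balance stayed below 0 in these runs, all of which included PMAIP1. It was -0.18 and -0.20 after quantile normalization (8 and 7 arrays), and -0.19 and -0.16 without members near background in both groups. Without single arrays it was -0.20 to -0.33 over 8 and -0.21 to -0.35 over 7. With each member scaled by its SD, which changes the unit, it was -0.61 and -0.79 SD units. Over all clusters, 18 higher and 0 lower calls over 8 arrays became 1 and 0 with the block, 12 and 0 after the filter and 43 and 5 with array weights, and 1 to 77 higher without single arrays. The 77 and 14 calls over 7 became 46 and 15 after centring, 74 and 5 with the block, 78 and 28 with trend and robust fitting, 98 and 24 with weights, and 24 to 106 and 1 to 46 without single arrays.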
